A study of Mus musculus with 48 samples.

Results

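Gastrocnemius, the large muscle of the calf, was compared between male mice heterozygous for the IGF-1R R1096C knock-in (Het) and male WT mice. The comparison took 14 of the 48 libraries of the series, 7 Het and 7 WT, by the tissue, sex and genotype in the sample labels. All 14 animals were 4 months old and C57BL/6J, and they descended from CRISPR-Cas9 founders backcrossed to WT for 2 generations. Het animals carried 1 WT and 1 knock-in allele in the germ line, so the change was present in liver and every other organ as well as in muscle. The other 34 libraries were female gastrocnemius and liver of both sexes, of which only the 11 female muscle libraries (6 WT, 5 Het) are used below, to ask whether the male difference also differed from the female one.

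IGF-1R is a receptor tyrosine kinase that binds IGF-1 and IGF-2 and signals through the IRS, PI3K, AKT and mTOR proteins and through the RAS and ERK cascade. In skeletal muscle this signaling is known for promoting protein synthesis and fibre growth and for holding back the FoxO factors that switch on atrophy genes. Gastrocnemius of the mouse is mostly made of fast fibres, with a deeper portion of oxidative fibres, and also holds fibroblasts, vessels and nerve.

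The changed residue lies in Igf1r on chromosome 7 of GRCm39, plus strand, at chr7:67857607-67857609, inside exon 17 of 21 of the canonical GENCODE transcript, all of it coding. The exon is shown whole (chr7:67857511-67857621, 111 bases, 5′ to 3′, WT reference sequence) because it holds the codon the knock-in targets, with that arginine codon, replaced by a cysteine codon in the Het allele, in capitals.

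Igf1r exon 17: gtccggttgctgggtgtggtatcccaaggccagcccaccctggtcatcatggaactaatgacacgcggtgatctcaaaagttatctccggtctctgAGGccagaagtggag

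The 14 libraries held between 26579653 and 48829652 counted reads, and 18323 of 57010 genes passed the filter, which asked for 10 or more reads in 20% or more of the 25 muscle libraries. All 14 carried the RNA of the labelled tissue and sex. Myh4, the fast IIB myosin heavy chain, stood at 49425.2 CPM or more. CPM are counts scaled to library size, in this paragraph by total counts and in those below also by the TMM factors of edgeR. Y-linked genes stood at a summed 83.2 to 195.6 CPM, against at most 0.586 CPM in the female muscle libraries. Het replicate 4 was checked apart because its animal number also labels a female WT liver. It read as male by its Y-linked genes (83.2 CPM), although its Xist, at 7.24 CPM, was the highest of the 14 (female muscle libraries 131.9 CPM or more), and the genotype fit was repeated without it. WT replicate 6 shares its animal number with a liver-labelled library, not used below, that held muscle RNA (Myh4 at 65311.7 CPM and albumin at 5.74 CPM), and the fit without this replicate gave 0 adjusted calls, with 409 genes higher and 267 lower at an unadjusted p under 0.05. Albumin, a liver transcript, reached 70.1 CPM at most. Principal components did not set the genotypes apart. The Het and WT means differed by 0.401 SD on component 1 (20.1% of the variance, exact permutation p = 0.455) and by 0.778 SD on component 2 (13.4%, p = 0.167).

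No gene passed an adjusted p of 0.05 between Het and WT (edgeR quasi-likelihood test, Benjamini-Hochberg over 18323 genes, smallest adjusted p = 0.999). At an unadjusted p under 0.05 stood 3.67% of the genes tested, 408 higher in Het (2.23%) and 264 lower (1.44%). The split was nearer to even under another scaling, with 339 higher and 313 lower by RLE and 370 and 331 by DESeq2. Without Het replicate 4 there were again 0 adjusted calls, and 634 genes at an unadjusted p under 0.05 (3.46%), 299 higher (1.63%) and 335 lower (1.83%). The median log2 fold change over all genes was -0.01. The 95% interval of the fold change lay within 1.5-fold in either direction for 40% of genes and within 2-fold for 60.1%. Every gene named below is therefore described by its level, its fold change and its rank, and none is a call. Counts of list members with all libraries stand against the shares of 2.23% higher and 1.44% lower.

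Intervals were narrow for some of the signaling lists and not for others. In the RAS-ERK cascade, 18 of 19 genes had an interval within 1.5-fold, and in the list of receptor substrates and AKT-mTOR genes 28 of 34 did, with all 34 within 2-fold. Among nuclear genes of oxidative phosphorylation it was 32 of 34. Of the IGF ligands, receptors and binding proteins, 7 of 17 had an interval within 1.5-fold (41.2%, against 40% of all genes). Of the ERK targets and immediate early genes, 6 of 35 did (17.1%).

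Igf1r mRNA itself overlapped almost entirely between the genotypes. WT libraries ranged from 12.4 to 22.9 CPM with a median of 18.2, and Het libraries from 15.4 to 24.2 CPM with a median of 19.6. The log2 fold change was 0.11 (SE 0.146, 95% interval -0.19 to 0.42). Reads of the WT and the knock-in allele cannot be told apart in counts per gene. The related receptors overlapped as well. Insr, the insulin receptor that also pairs with IGF-1R in hybrid receptors, had medians of 79.1 CPM in WT and 78.8 CPM in Het (log2 fold change 0.03, SE 0.121). Igf2r, which clears IGF-2, had medians of 70.5 and 78.2 CPM (0.20, SE 0.116).

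Among the 17 of 18 IGF ligands, receptors and binding proteins that could be tested, 1 was higher and 1 lower in Het at an unadjusted p under 0.05, and the median log2 fold change was 0.05. Igf1, the ligand that muscle makes for itself, lay between 13.9 and 40.7 CPM in WT (median 31.4) and between 18.2 and 27.4 CPM in Het (median 24.9). The lowest WT library sat below every Het library while 5 of the 7 WT libraries sat above every Het library, and the fold change was -0.40 (log2, SE 0.185, 95% interval -0.79 to -0.01). Without Het replicate 4 the value was -0.44 (SE 0.197), and without Het replicate 6 it was -0.35 (SE 0.193) and no longer at an unadjusted p under 0.05. Igfbp5, the binding protein most tied to muscle differentiation, lay between 357 and 572 CPM in WT (median 415) and between 435 and 859 CPM in Het (median 555), with a log2 fold change of 0.35 (SE 0.153). Het replicate 6 gave the highest Igfbp5 value, and without it the fold change was 0.22 (SE 0.135), no longer at an unadjusted p under 0.05. The remaining binding proteins with a level well above zero, Igfbp3, Igfbp4, Igfbp6 and Igfbp7, had log2 fold changes of 0.14, 0.02, 0.28 and 0.05, none at an unadjusted p under 0.05.

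**Figure D1:**
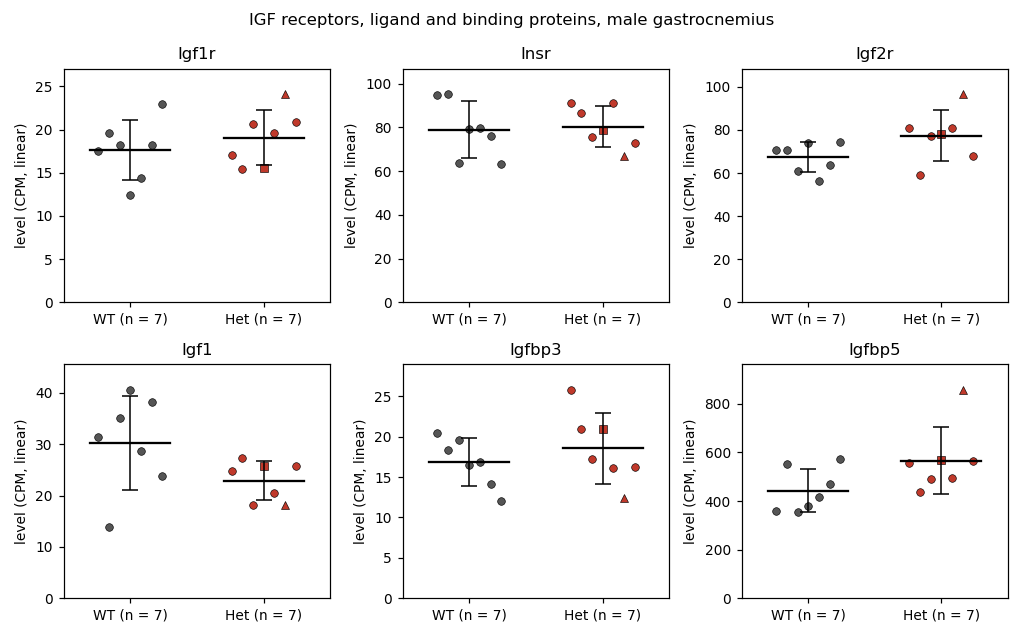
Level in CPM (linear axis from 0) of 6 IGF genes in each male gastrocnemius library, grey for WT and red for Het, 7 each, with the mean and SD as lines. The square is Het replicate 4 and the triangle Het replicate 6. The groups overlap for all 6 genes, and Igfbp5 in Het replicate 6 stands at 859 CPM, above the other Het libraries.

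Downstream of the receptor, 3 of 34 receptor substrate and AKT-mTOR genes were higher in Het at an unadjusted p under 0.05 and 0 were lower. Over all genes 2.23% were higher and 1.44% lower, and the list median was 0.07. The 3 were Rptor, the scaffold of mTOR complex 1 (medians 30.5 CPM in WT and 40.2 in Het, log2 fold change 0.33, SE 0.124), and Tsc1 and Tsc2, the brake on that complex (0.30, SE 0.136, and 0.26, SE 0.118). Rptor was at an unadjusted p under 0.05 whichever single library was left out. The count of higher members then ran from 1 to 5, while 1.13% to 3.69% of all genes were higher in those fits. Tsc2 no longer had an unadjusted p under 0.05 without Het replicate 4 (0.22, SE 0.122). Irs1 and Irs2, the adaptors next to the receptor, were at -0.04 and -0.09, and the kinases Akt1 and Akt2 at 0.20 and 0.11. In the RAS-ERK cascade 0 of 19 genes had an unadjusted p under 0.05 and the median was 0.02. Of 8 growth hormone receptor and STAT5 genes, Stat5b, a transcription factor of the growth hormone pathway, was higher (medians 185 and 218 CPM, 0.31, SE 0.129), while its targets Cish and Socs2 stood at -0.12 (SE 0.479) and -0.34 (SE 0.27).

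Immediate early genes and feedback genes of the ERK pathway gave 0 of 35 members at an unadjusted p under 0.05 with all libraries. Their picture depended on single libraries, most of all on Het replicate 4. In that library Fos, a rapidly induced transcription factor, stood at 180 CPM and Egr1, another of this kind, at 164 CPM, whereas the other 6 Het libraries held 0.532 to 30.7 CPM of Fos and WT libraries 5.50 to 30.1 CPM. The summed level of the list was 1970 CPM there and 399 to 796 CPM in the other Het libraries. In WT it was 450 to 1119 CPM, highest in WT replicate 4 (1119 CPM) and WT replicate 2 (917 CPM). Without Het replicate 4 the list median moved from 0.08 to -0.28, and 4 members were lower at an unadjusted p under 0.05, namely Atf3 (-1.60), Nr4a3 (-1.20), Klf4 (-0.51) and Klf6 (-0.45). In that fit 1.83% of all genes were lower, and the adjusted p again stayed above 0.05 for all genes. Other fits went the other way. With Het replicate 5 left out, 3 members were higher (2.16% of all genes). With WT replicate 2 or WT replicate 4 left out, 2 were (3.69% and 1.88% of all genes).

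**Figure D2:**
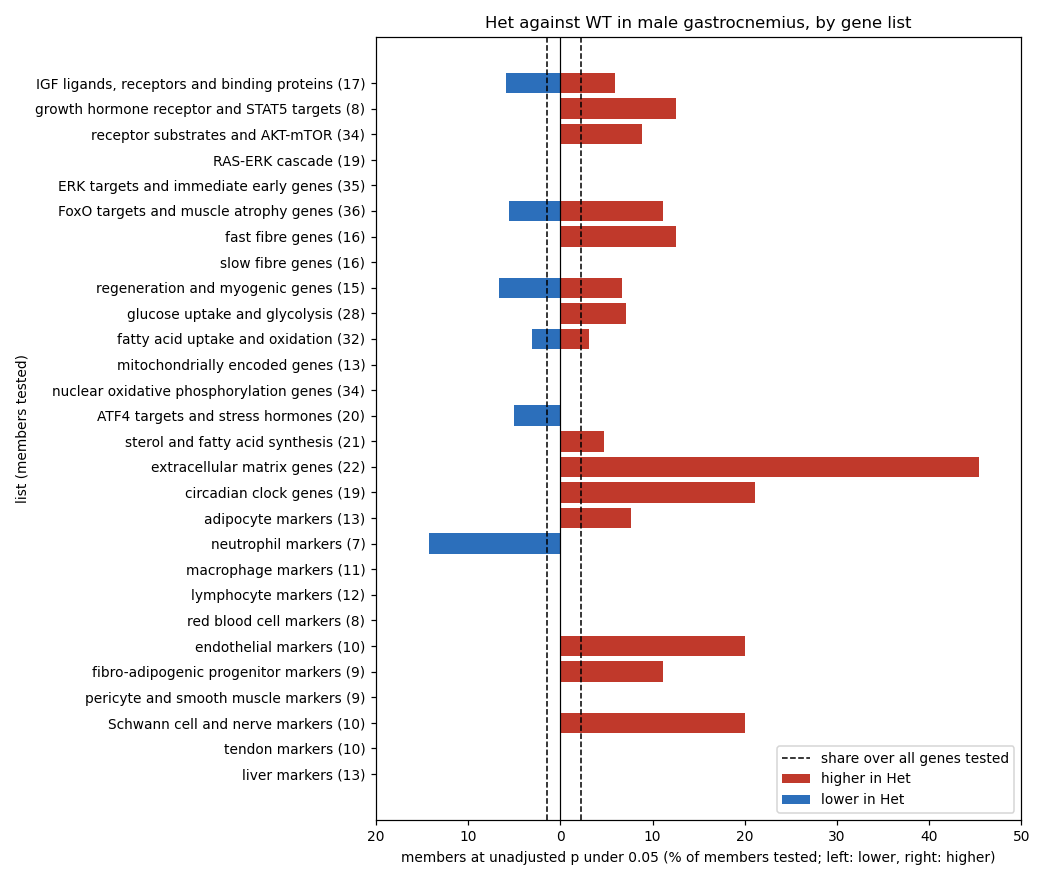
Share of tested members (percent, list size in brackets) with an unadjusted p under 0.05 in each gene list, red to the right for higher in Het and blue to the left for lower. Dashed lines mark the shares over all 18323 genes, 2.23% and 1.44%. The extracellular matrix list reaches furthest to the right, with 10 of 22 members, and several bars stand for 1 or 2 genes.

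The list with the highest share of genes at an unadjusted p under 0.05 was that of the extracellular matrix. Of 22 matrix genes, 10 were higher in male Het muscle at an unadjusted p under 0.05 and 0 were lower, against 2.23% and 1.44% of all genes, and 19 of the 22 fold changes were positive (median 0.34, against -0.01 over all genes). None passed the adjusted threshold. The gene lists were chosen with earlier results of these data known, so this share describes the list and does not test it. The 10 were the fibrillar collagen genes Col1a1, Col1a2, Col3a1 and Col5a1, the 3 chains of collagen VI that surrounds muscle fibres (Col6a1, Col6a2 and Col6a3), Col15a1 of the basement membrane zone, the microfibril gene Fbn1 and the matrix protease gene Mmp2. All 10 had their highest level in the same library, Het replicate 6, so their count does not stand for that many independent observations.

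Col6a2 ranked second of all genes higher in Het among those averaging a log2 CPM of 0 or more. Its WT libraries ranged from 38.1 to 49.9 CPM with a median of 41.6, and its Het libraries from 49.0 to 101 CPM with a median of 57.5. The groups met only at the edge, with the lowest Het library under the highest WT library (log2 fold change 0.55, SE 0.148, 95% interval 0.25 to 0.86). Col15a1 ranged from 17.0 to 28.5 CPM in WT (median 23.8) and from 25.3 to 46.7 CPM in Het (median 31.3), a fold change of 0.51 (SE 0.141, 95% interval 0.22 to 0.81). Its groups overlapped between 25.3 and 28.5 CPM. Col1a1, the main chain of collagen I, ranged from 41.9 to 78.2 CPM in WT (median 64.3) and from 63.6 to 327 CPM in Het (median 81.8), with a fold change of 0.93 (SE 0.303, 95% interval 0.30 to 1.56).

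Het replicate 6 was the highest library for Col1a1, at 327 CPM against at most 113 CPM in the other 6 Het animals, and it also held the highest summed level of the list, 2372 CPM. The other Het libraries held 1212 to 1811 CPM and the WT libraries 1131 to 1508 CPM. Without it 6 of 22 genes remained at an unadjusted p under 0.05 (Col6a2, Col15a1, Mmp2, Col6a1, Col1a1 and Col5a1), where 1.13% of all genes were higher, and the list median was 0.24. Col1a1 then stood at 0.42 (SE 0.174) and Col6a2 at 0.40 (SE 0.117). Without Het replicate 4 the same 10 genes stayed under the threshold (median 0.35), and without Het replicates 1 to 3, whose run of animal numbers holds no WT muscle library, 13 did (median 0.45, where 2.43% of all genes were higher). Over all single libraries left out in turn, the count ran from 6 to 14.

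None of the remaining 12 matrix genes had an unadjusted p under 0.05. Of these, 9 had a positive fold change, among them Fn1 (fibronectin, 0.37), Bgn (biglycan, 0.30), Lum (lumican, 0.30) and the basement membrane collagen genes Col4a1 (0.27) and Col4a2 (0.29). The 3 negative ones were Dcn (decorin, -0.06), Postn (-0.10) and Lox, the collagen crosslinking enzyme (-0.30). Efemp2, a gene of elastic fibre assembly outside the list, was picked because its libraries did not overlap between the genotypes. It held 4.19 to 5.57 CPM in WT and 5.74 to 7.77 CPM in Het (log2 fold change 0.36, SE 0.158). It was 1 of 4 such genes (0.0218% of those tested), and whether chance gives as many was not tested. Being picked by its values, it is not separate support for the matrix list. Markers of the cells that make matrix were recorded beside this. The summed level of 9 fibro-adipogenic progenitor markers was 860 to 1106 CPM in WT and 885 to 1413 CPM in Het, with 1 of 9 higher at an unadjusted p under 0.05 (Pi16, 0.38) and Pdgfra, the defining receptor, at 0.15. The 10 tendon markers summed to 63.2 to 180 CPM in WT and 62.8 to 196 CPM in Het. Het replicate 6, the library with the highest matrix sum, also held the highest tendon sum of the 14 libraries (196 CPM) and the highest sum of Schwann cell and nerve markers (292 CPM). The fold changes of the tendon genes Comp and Cilp2 were 0.70 (SE 0.462) and 0.69 (SE 0.479) with all libraries and 0.29 (SE 0.441) and 0.06 (SE 0.424) without it. The part of these cell types in the matrix result was not tested, and in bulk tissue fewer cells of a type and less RNA per cell cannot be told apart.

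In female gastrocnemius the same list gave 0 of 22 genes at an unadjusted p under 0.05 in either direction (0.89% of all genes were higher and 1.37% lower), with a median of -0.15. The difference between the male and the female effect was tested directly in 1 model of all 25 muscle libraries. It passed the adjusted threshold for no gene (smallest adjusted p = 0.9999, edgeR quasi-likelihood test), and 620 genes had an unadjusted p under 0.05 (3.38%), 344 with the higher effect in males (1.88%). Several lists had members among these. They were 6 of 8 red blood cell markers, 5 of 21 sterol and fatty acid synthesis genes and 5 of 35 ERK targets and immediate early genes. All of them had the higher effect in males. The FoxO target and atrophy list had 5 of 36, 3 with the higher effect in males and 2 with the lower. Of the 22 matrix genes 7 were among the 620, all with the higher effect in males. Examples were Col5a1 (male minus female log2 difference 0.79), Col3a1 (1.03) and Col6a2 (0.76). The male minus female difference was not refitted without Het replicate 6, in which the male matrix genes named above peaked. The male Col3a1 fold change was 0.53 with all libraries and 0.29 (SE 0.142) without that replicate. Female WT levels were uneven for Col1a1 (mean 173 CPM, SD 134) and less so for Col5a1 (mean 37.0 CPM, SD 9.76). Mmp2 was positive in both sexes (0.63 in males, 0.24 in females), and its difference was not at an unadjusted p under 0.05.

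**Figure D3:**
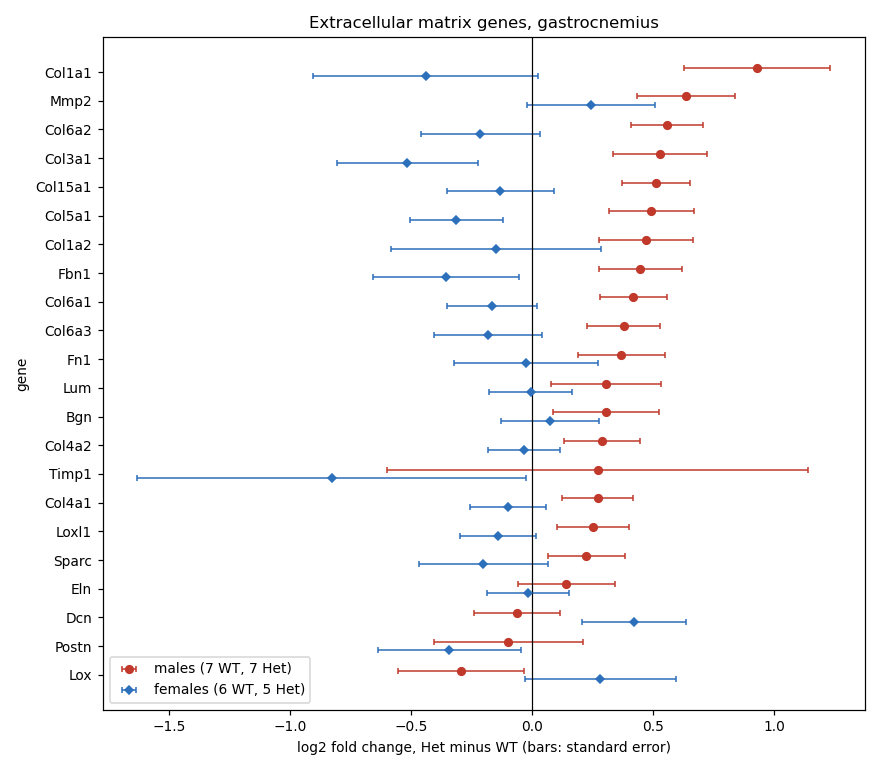
Log2 fold change (Het minus WT) with its standard error for the 22 extracellular matrix genes in gastrocnemius, red circles for males and blue diamonds for females. Of the male values 19 lie right of 0, while the female median is -0.15. No single difference passed the adjusted test.

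Fibre type genes gave a mixed picture in which 1 Het animal stood at the far end. Myosin heavy chain genes mark the fibre types, with Myh4 for IIB, Myh1 for IIX, Myh2 for IIA and Myh7 for slow fibres. Their levels per transcript length were turned into shares of the sum of these 4. Myh4 made up 96.3% to 98.6% of the sum in WT and 94.9% to 99.5% in Het (exact permutation p = 0.154). The share of Myh2 ran from 0.277% to 1.02% in WT (median 0.585%) and from 0.0729% to 1.70% in Het (median 1.13%), so 5 of the 7 Het libraries were above every WT library and 1 was below every WT library (exact permutation p = 0.105). That lowest library was Het replicate 7, in which Myh4 reached 99.5% and Myh7 0.00222%. In the count model Myh2 stood at 0.92 (log2 fold change, SE 0.402) and Myh1 at 0.59 (SE 0.276), the 2 fast fibre genes at an unadjusted p under 0.05. They stood, without Het replicate 4, at 0.87 (SE 0.421) and 0.52 (SE 0.287) and were not. Without Het replicate 6 they stood at 0.66 (SE 0.392) and 0.47 (SE 0.282) and were not either, and 0 of the 16 fast fibre genes were without WT replicate 1, WT replicate 5 or Het replicate 5. These myosin genes are close copies of each other, and reads shared between them make their split uncertain.

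**Figure D4:**
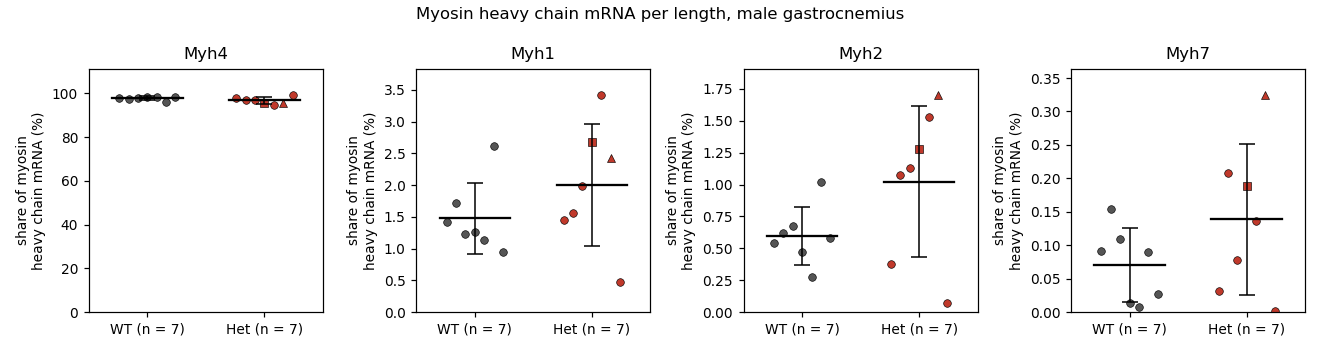
Share of each myosin heavy chain gene in the summed level per length of the 4 genes (percent, each axis from 0), by male gastrocnemius library, grey for WT and red for Het, with mean and SD as lines. The square is Het replicate 4 and the triangle Het replicate 6. The Het libraries spread wider than the WT libraries for Myh2, from 0.0729% to 1.70%.

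Slow fibre genes had positive fold changes for all 16 members (median 0.39), yet 0 of 16 had an unadjusted p under 0.05 and only 1 interval lay within 1.5-fold. Without Het replicate 7, 5 of 16 were higher at an unadjusted p under 0.05 and the median was 0.60 (2.45% of all genes were then higher). The median was lower in other fits, 0.20 without Het replicate 4, 0.25 without Het replicate 2 or WT replicate 7, 0.14 with the replicate block and 0.07 with limma voom, each with 0 of 16 at an unadjusted p under 0.05. Myh7 ranged from 7.95 to 162 CPM in WT (median 73.8) and from 2.80 to 401 CPM in Het (median 134), with a fold change of 1.14 (SE 0.666, 95% interval -0.25 to 2.53). The lowest and the highest of all 14 values were both in Het. Fast fibre genes other than Myh1 and Myh2 gave no member at an unadjusted p under 0.05 in a list of 16 with a median of -0.06.

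Among 19 circadian clock genes, 4 were higher in Het at an unadjusted p under 0.05 and 0 were lower (2.23% and 1.44% of all genes), with a median of 0.10. Nr1d1, the repressor REV-ERB alpha, ranged from 34.4 to 157 CPM in WT (median 70.9) and from 76.7 to 239 CPM in Het (median 126), with a log2 fold change of 0.76 (SE 0.283, 95% interval 0.17 to 1.35). Of the 7 WT libraries 4 lay below every Het library and the other 3 within the Het range. Ciart, Bhlhe40 and Dbp had fold changes of 0.51, 0.40 and 0.44. The activator genes Bmal1 and Clock were at 0.06 and 0.07, and Tef was at 0.13 (SE 0.121). Other clock genes went the other way, with Per1 at -0.45 (SE 0.304), Nr1d2 at -0.21 (SE 0.16) and Per2 at -0.21. Of the 19 fold changes 14 were positive and 5 negative. In females Nr1d1 stood at -0.48 (SE 0.175) and Bhlhe40 at -0.31 (SE 0.129). The male minus female difference was 1.24 (95% interval 0.44 to 2.03) for Nr1d1 and 0.70 (95% interval 0.23 to 1.17) for Bhlhe40, both at an unadjusted p under 0.05 and neither past the adjusted threshold. The count fell to 1 (Nr1d1) without Het replicates 1 to 3, where 2.43% of all genes were higher. It fell to 2 without WT replicate 4, Het replicate 6 or Het replicate 7, where 1.88%, 1.13% and 2.45% of all genes were higher. The study's account of tissue collection for protein work puts the sacrifices at a fixed time of day, in a short window on several successive days, and does not give the day of each animal.

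**Figure D5:**
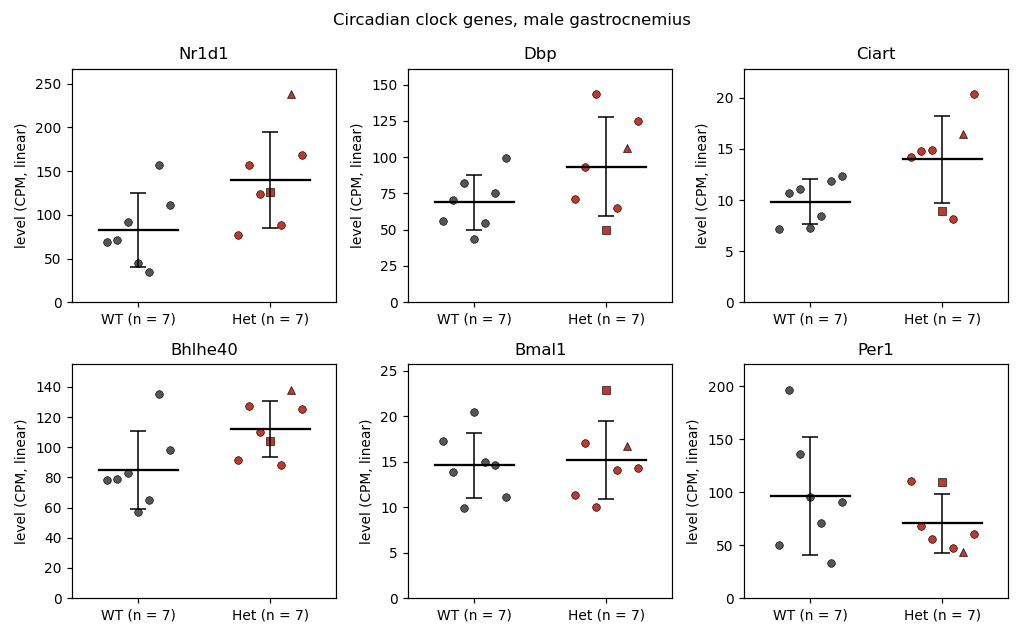
Level in CPM (linear axis from 0) of 6 clock genes by male gastrocnemius library, grey for WT and red for Het, 7 each, with mean and SD as lines. The square is Het replicate 4 and the triangle Het replicate 6. Nr1d1 has a median of 70.9 CPM in WT and 126 CPM in Het, Bmal1 of 14.6 and 14.3 CPM, and the groups overlap in every panel.

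The FoxO target and atrophy list was split, with 4 of 36 members higher in Het and 2 lower at an unadjusted p under 0.05 and a median of 0.01. Over all genes 2.23% were higher and 1.44% lower. The ubiquitin ligase gene Fbxo32 (atrogin-1) had medians of 343 CPM in WT and 447 CPM in Het (log2 fold change 0.37, SE 0.141). Acvr2b, a myostatin receptor, stood at 0.82 (SE 0.293), Foxo6 at 0.65 (SE 0.305) and the muscle protease gene Capn3 at 0.44 (SE 0.196). In the other direction Gadd45a, which is induced in denervated and fasted muscle, ranged from 13.8 to 20.2 CPM in WT and from 10.5 to 17.3 CPM in Het (-0.40, SE 0.138), and Gadd45g stood at -0.87 (SE 0.331). For Gadd45a the female value was 0.29 and the male minus female difference -0.70 (95% interval -1.09 to -0.30). Of 15 regeneration and myogenic genes, the myogenic factor gene Myf6 was lower (medians 99.8 and 65.2 CPM, -0.51, SE 0.17) and Chrnd, a subunit of the acetylcholine receptor of the endplate, higher (0.83, SE 0.345). Without Het replicate 4 the FoxO list gave 3 higher and 2 lower (1.63% and 1.83% of all genes). Without Het replicate 6 it gave 2 and 2, where 1.13% of all genes were higher.

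Few metabolic genes stood apart, and over all genes 2.23% were higher in Het and 1.44% lower. In glucose uptake and glycolysis 2 of 28 members were higher at an unadjusted p under 0.05, Pfkfb3 (0.60, SE 0.253), which makes an activator of glycolysis, and the glycogen synthase gene Gys1 (0.30, SE 0.134). In fatty acid uptake and oxidation 1 of 32 was higher, Acadvl (0.40, SE 0.167), and 1 lower, Ucp3 (-0.39, SE 0.172). None of 34 nuclear oxidative phosphorylation genes or of 13 mitochondrially encoded genes had an unadjusted p under 0.05, with medians of -0.07 and -0.08, and the share of reads on the mitochondrial genes was 6.79% to 15.9% in WT and 8.85% to 14.9% in Het (exact permutation p = 0.656). Srebf1, a regulator of lipid synthesis, was the 1 of 21 sterol and fatty acid genes that was higher (medians 44.0 and 68.4 CPM, 0.47, SE 0.154). Psph, of serine synthesis, was the 1 of 20 ATF4 targets and stress hormones that was lower (-0.35, SE 0.141). Without Het replicate 4 the counts were 1 higher for glycolysis, 0 higher and 2 lower for fatty acids, 3 lower for ATF4 targets, and 1 higher and 1 lower for sterol and fatty acid genes. In that fit 1.63% of all genes were higher and 1.83% lower. Of the 13 mitochondrially encoded genes 3 were lower without Het replicates 1 to 3, and of the 34 nuclear ones 1 was. The list medians were then -0.28 and -0.22, and 471 of 18323 genes were lower.

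Markers of nerve and vessel were also examined. Of 10 Schwann cell and nerve markers, 2 were higher in Het at an unadjusted p under 0.05 (2.23% of all genes were) and the median was 0.38. Sox10, the defining transcription factor of Schwann cells, ranged from 1.11 to 2.97 CPM in WT and from 2.27 to 6.84 CPM in Het (0.97, SE 0.292, 95% interval 0.36 to 1.58), and the myelin gene Prx stood at 0.51 (SE 0.235). The summed level of the list was 84.8 to 272 CPM in WT and 109 to 292 CPM in Het. Without WT replicate 6, which held the highest WT sum, 6 of 10 were higher (2.23% of all genes) and the median was 0.58. Without Het replicate 6 only Sox10 was (1.13% of all genes), and the median was 0.20. Of 10 endothelial markers, 2 were higher with all libraries (2.23% of all genes were), Kdr, the VEGF receptor, (0.48, SE 0.154) and Vwf (0.47, SE 0.191). The endothelial list summed to 264 to 396 CPM in WT and 312 to 461 CPM in Het. With all libraries, macrophage, lymphocyte, red blood cell, pericyte and liver marker lists gave 0 members at an unadjusted p under 0.05. The neutrophil list gave 1 of 7, Retnlg, with 0 reads in all 7 Het libraries and 0 to 1.20 CPM in WT, and the adipocyte list gave 1 of 13, Lep, the leptin gene, with a median of 0.953 CPM in WT and 3.17 CPM in Het (1.17, SE 0.525). Without Het replicate 4 the adipocyte list gave 0 of 13 and the neutrophil list 2 of 7, both lower in Het. In that fit 1.63% of all genes were higher and 1.83% were lower. The male Lep fold change without Het replicate 4 was 0.87 (SE 0.534). In females Lep stood at -1.80 (SE 0.742), and the male minus female difference was 2.96 (95% interval 1.05 to 4.87), not past the adjusted threshold. Female WT libraries were uneven, with a mean of 18.7 CPM and an SD of 23.7, against 5.34 CPM and an SD of 4.46 in female Het. In males without Het replicates 1 to 3, some marker lists moved. Of 13 liver markers 4 were then lower at an unadjusted p under 0.05 (list median -1.52), and of 8 red blood cell markers 2 were. Of 9 pericyte and smooth muscle markers 1 was higher. In that fit 471 of 18323 genes were lower and 2.43% were higher.

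Outside the lists, the genes averaging a log2 CPM of 0 or more with the smallest unadjusted p were led by 3425401B19Rik, a gene of striated muscle, with 125 to 257 CPM in WT and 212 to 377 CPM in Het (0.63, SE 0.166). After it and the 2 collagen genes came Mdga1 (0.60), Npr3 (0.89), a clearance receptor for natriuretic peptides, Ssh2 (0.45), a cofilin phosphatase, the complement gene C7 (0.67) and Dennd2b (0.52). The genes ranked first on the lower side were Mrps6 (-0.61), of the mitochondrial ribosome, the pseudogene Gm10073 (-0.65), Mier3 (-0.52), Sgpp1 (-0.51), a sphingosine phosphate phosphatase, Ccdc71l (-0.47), the pseudogene Gm6210 (-0.95), the muscle long noncoding RNA Lincmd1 (-1.63) and the noncoding Gm49172 (-0.50). Pseudogene counts can take reads from their parent genes. Gm49172 and Cd59a, a complement inhibitor, were the genes averaging a log2 CPM of 1 or more whose Het libraries all lay below the WT libraries. Cd59a ranged from 25.1 to 28.0 CPM in WT and from 21.9 to 24.9 CPM in Het, a small difference (-0.18, SE 0.0972). The fourth gene without overlap, Mrps36-ps2, named after its values were seen, was at most 0.937 CPM in any library.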

How the data were processed

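Polyadenylated RNA of gastrocnemius was sequenced in 14 male libraries. The deposited values are raw read counts per gene, which the authors made by mapping to GRCm39 with STAR 2.7.11b and counting with featureCounts 2.0.6, with no normalization or filter. The annotation, strandedness and handling of multimapping reads are not given in the sources used here, so overlapping genes and close copies are uncertain. Of counts from 1 to 100, 80.1% were even, so mates of a pair may have been counted separately.

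Genes with 10 or more reads in 20% or more of the 25 muscle libraries were tested with edgeR 4.0.16 in R 4.3.3 (TMM, quasi-likelihood test, Benjamini-Hochberg over all 18323 genes, threshold 0.05). The study's methods name edgeR, this filter and separate comparisons by tissue and sex. The sex by genotype interaction used 25 libraries. Library measures and principal components (log2 CPM, prior count 2) were compared by two-sided exact permutation tests (scipy 1.17.1), adjusted over 36 measures and 2 components, and the permutation p values in the text are unadjusted (the smallest adjusted p over the measures was 0.543). GENCODE M39 named 98.77% of genes. Scripts were tested on simulated data. The members and gene lists were chosen with earlier results of these data known. Named genes were list members, the 8 smallest unadjusted p each way at an average log2 CPM of 0 or more, up to 5 genes each way without overlap at 1 or more, and genes called only under an alternative. The labels give each library as a biological replicate. Alternatives were RLE, the likelihood ratio test, a robust fit, DESeq2 1.42.0, limma voom 3.58.1 with sample weights, no filter, filterByExpr, all 25 libraries, a replicate block, a mitochondrial covariate, and leaving out Het replicate 4, Het replicates 1 to 3 or each library.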

Additional observations from a re-analysis of the deposited data

Results flagged for a closer look

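In 208 groups of 7 values (named genes and library measures), 18 had 1 library far from the others by Dixon's test, where chance alone gives about 1 in 20. Of these, 9 were the highest value in Het replicate 6, which are not independent of each other. They were Col6a2 (101 CPM, others 49.0 to 69.3), Col1a1 (327, others 63.6 to 113), Col1a2 (244, others 93.4 to 145), Col3a1 (287, others 98.5 to 169), Col5a1 (61.8, others 28.4 to 34.6), Col6a1 (111, others 56.3 to 68.6), Mmp2 (31.0, others 11.7 to 19.6), Igfbp5 (859, others 435 to 567.6) and the summed IGF list, to which Igfbp5 belongs (1241 CPM, others 805 to 984).

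Het replicate 4 had the highest summed level of ERK targets and immediate early genes, 1970 CPM (others 399 to 796). Het replicate 7 had the lowest Gm6210, 1.07 CPM (others 1.499 to 1.77). WT replicate 6 was highest for Gm49172 (18.6 CPM, others 10.1 to 12.7), Retnlg (1.20 CPM, others 0 to 0.509), the sterol and fatty acid synthesis list (620 CPM, others 327 to 431) and red blood cell markers (575 CPM, others 168 to 319). WT replicate 4 was highest for the FoxO target and atrophy list (5979 CPM, others 3628 to 4551), WT replicate 3 for Vwf (37.6 CPM, others 14.8 to 23.96), and WT replicate 2 was lowest for Efemp2 (4.19 CPM, others 5.15 to 5.57).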

How the results depend on the processing

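Of 1699 recomputed fold changes of 68 named genes, 1691 kept their direction. The exceptions were Insr and Bmal1, both near 0 and called in no fit. Most of the 68 genes were named by their values in the main fit, and the refits shared most libraries with it. Keeping a direction was therefore largely given in advance and is not separate support. Insr was -0.0206 with limma voom and -0.0296 without Het replicates 1 to 3, and leaving out single libraries gave -0.0189 to 0.0795. Bmal1 ran from -0.075 to 0.151 with single libraries left out. No adjusted call appeared with any alternative for genotype except DESeq2, with 1. This was Krt5, named after its value was seen, which had reads in WT replicates 1 and 3 only (0.66 and 3.84 CPM). The likelihood ratio test of the interaction gave 1, Dmkn (adjusted p = 0.0106, edgeR), where the quasi-likelihood test gave 0.

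The number of genes at an unadjusted p under 0.05 (408 and 264 with all libraries) was 1344 with limma voom, 4742 of 29575 genes without a filter, 1044 with all 25 muscle libraries, and 379 (without Het replicate 6) to 1122 (without WT replicate 2) with single libraries left out. For the interaction, with 620, it was 2622 without a filter and 937 without Het replicates 1 to 3. The matrix count of 10 ran from 6 to 14 and the clock count of 4 from 2 to 5 with single libraries left out, and the clock count was 1 without Het replicates 1 to 3. Without these replicates Het libraries held 1886 more detected genes than WT (exact permutation p = 0.0182 unadjusted). The cause of these changes was not tested.

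Replicate numbers do not pair the animals (7 pairs, correlations of deviations -0.13 to 0.09, 1 of 7 best with its own number). The replicate block gave 0 adjusted calls, 617 genes at an unadjusted p under 0.05 and 10 matrix genes. With 7 animals a group, intervals wider than 2-fold remained for the genes not counted within that bound.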
